A study of Arabidopsis thaliana with 6 samples.

Results

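The core cell-cycle genes of Arabidopsis thaliana were examined for binding of the stem cell regulator WUSCHEL (WUS) and for histone differences from wild type. They were taken by name from the TAIR10 annotation: every gene whose symbol or synonym begins with CYCA, CYCB, CYCD, CDKA or CDKB followed by a digit or a semicolon, or is KRP with a number. The rule gave 41 genes of 37899 nuclear genes, and all 41 are among the 27444 protein-coding ones. They comprise 10 CYCD, 10 CYCA and 10 CYCB cyclin genes, 1 CDKA and 4 CDKB kinase genes, and 6 KRP inhibitor genes. For each gene the stretch examined ran from 2500 bp upstream of the transcription start site (TSS) to 1000 bp past the gene end, called the gene window below, and its median length was 5816 bp (4668 to 10770 bp).

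Cyclin-dependent kinases (CDKs) drive the cell cycle and are active only with a cyclin partner. In plants CYCD cyclins act with CDKA at the entry into S phase, where the kinase phosphorylates the retinoblastoma-related protein and releases E2F factors. CYCA cyclins act from S phase into G2, CYCB cyclins and the plant-specific CDKB kinases act around mitosis, and KRP proteins bind cyclin-CDK complexes and inhibit them. In the shoot meristem, WUS is made in the organizing centre and moves into the stem cells, which divide slowly.

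The data came from chromatin immunoprecipitation with sequencing (ChIP-seq) on whole seedlings, in which the study asked where WUS sits on chromatin and whether acetylation or methylation of histone H3 changes with it. There were 6 groups, each with 1 list of genomic windows. The WUS-GR line carries pUBI10::mCherry-GR-linker-WUS, a WUS protein tagged with mCherry and held outside the nucleus by the glucocorticoid receptor domain until dexamethasone is given. Wild-type Col-0 seedlings, which lack the transgene, were the comparison. Seedlings of both genotypes were 5 days past germination and had received 25 µM dexamethasone for 2 h, so the drug is shared and the transgene differs. This concentration is the labelled one, and the paper's methods name a lower one. No list compares WUS-GR seedlings with and without the drug, so effects of WUS activation cannot be told apart from standing differences between the lines. Chromatin was recovered with RFP-trap, which binds mCherry, with an antibody to H3 acetylated at lysines 9 and 14 (H3K9/K14ac), a mark of active genes, or with an antibody to H3 trimethylated at lysine 27 (H3K27me3), the Polycomb mark of silent genes. The ubiquitin promoter drives the fusion in cells throughout the seedling, most of which never contain WUS, and the line is a single transgenic insertion. DNA of several immunoprecipitations was pooled, so a group stands for 1 pool and has no replicate spread.

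A window is in a WUS-GR list where WUS-GR had more signal than Col-0, and in a Col-0 list where it had less. Merged WUS-GR RFP-trap windows are called WUS-GR regions, and a gene whose window they overlap is called bound. Merged H3K9/K14ac or H3K27me3 windows are called gained when they come from the WUS-GR list and lost when they come from the Col-0 list. Only positions were read from the lists, so depth and signal height are unknown here, and no test or p-value could be formed. Counts of members are set beside the share of all protein-coding genes that pass the same rule. The lists held 86611 windows in all, of which 42402 were WUS-GR RFP-trap windows (10087 regions) and 706 were Col-0 RFP-trap windows. At the WUS gene itself, which the transgene copies as coding sequence without introns, WUS-GR RFP-trap windows covered 42.2% of the coding bases and 0% of the intron bases. The 2 WUS-GR regions there were centred 311 bp past the TSS and 389 bp upstream of it, the latter outside the coding sequence. A gained H3K9/K14ac region was centred 811 bp past the TSS. Where a gained and a lost region of 1 mark lay closer than 73 bp, both were dropped, which removed 41.9% of gained and 43.5% of lost acetylation regions, and 84.7% of gained and 62.8% of lost methylation regions.

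Binding was spread unevenly over the classes. Of the 41 members, 20 (48.8%) were bound, against 38.1% of all protein-coding genes, and 0 carried a Col-0 RFP-trap window, against 2.39%. The bound members were 9 of 10 CYCD, 3 of 10 CYCA, 1 of 10 CYCB, the CDKA gene, 1 of 4 CDKB and 5 of 6 KRP genes. The CYCD, CDKA and KRP genes, grouped here after their counts were seen, are 17 of the 41 members and held 15 of the 20 bound ones. The mitotic CYCB cyclins held 1. The region at the CDKA gene lay past the gene end and belonged by midpoint to a neighbour. The median window length was 5621 bp in CYCD, 6110 bp in CYCA, 5946.5 bp in CYCB and 4955 bp in KRP genes. Bound members had a median window of 5621 bp, against 5858 bp in members that were not bound, whereas over all protein-coding genes the bound ones had 5770 bp, against 5448 bp. The part of window length in these counts was not tested. Gained H3K9/K14ac was found at 3 of 10 CYCD, 3 of 10 CYCA, 4 of 10 CYCB, 1 of 4 CDKB and 1 of 6 KRP genes and not at the CDKA gene. Lost H3K9/K14ac was found at 4 of 10 genes in each cyclin class, at the CDKA gene, at 1 of 4 CDKB and at 1 of 6 KRP genes. With the regions that the 73 bp rule drops kept in, the KRP counts were 3 of 6 gained and 4 of 6 lost. The share of all protein-coding genes without that rule is not given here, so these 2 counts have no background. In all, 12 members (29.3%) had a gained H3K9/K14ac region, against 33.1% of all protein-coding genes, and 15 (36.6%) had a lost one, against 28.8%. Gained H3K27me3 was found at 1 member (2.44%), against 3.88%, and lost H3K27me3 at 4 (9.76%), against 14.2%.

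**Figure D1:**
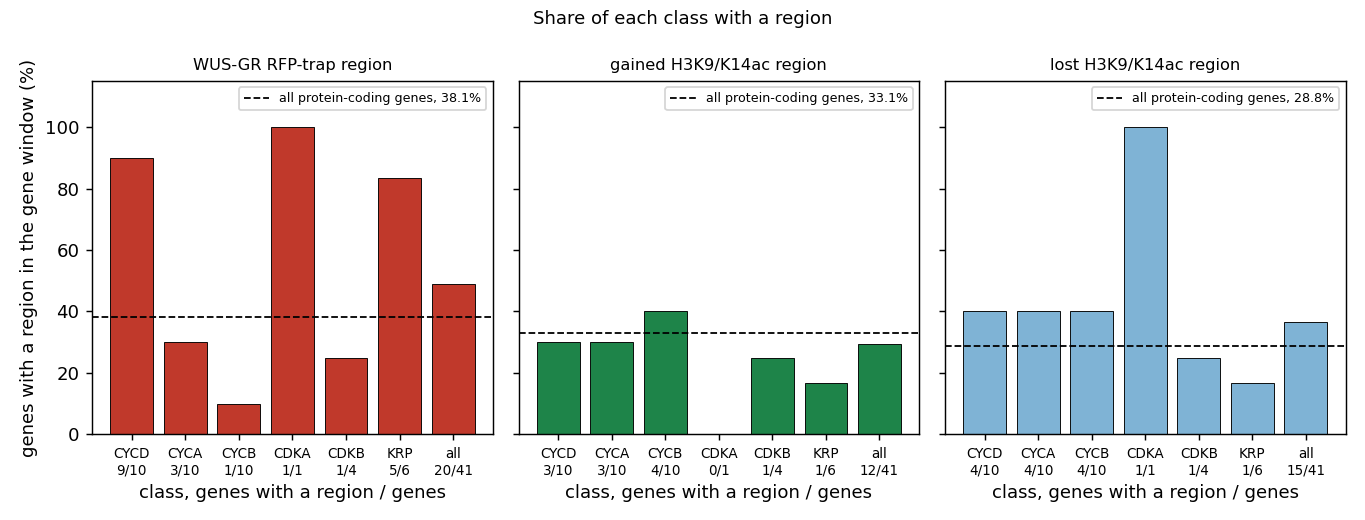
Share of the genes of each class (vertical axis, percent) whose gene window overlapped a WUS-GR RFP-trap region, a gained or a lost H3K9/K14ac region, with the number of genes under each bar and a dashed line at the share of all protein-coding genes. The CYCD and KRP bars stand far above the line for binding (9 of 10 and 5 of 6) and the CYCB bar far below it (1 of 10), while the acetylation bars of the 3 cyclin classes are 3 or 4 of 10 genes high and those of the KRP class 1 of 6.

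The split between classes depended on where in the gene window a region could lie. With the upstream part shortened to 1000 bp, 8 of 10 CYCD, 1 of 10 CYCA, 0 of 10 CYCB and 4 of 6 KRP genes were bound, against 31.9% of all protein-coding genes. With the gene body alone, from the TSS to the gene end, 5 of 10 CYCD, 1 of 10 CYCA, 0 of 10 CYCB and 3 of 6 KRP genes were bound, against 17.9% of all protein-coding genes. With only the 2500 bp upstream of the TSS, 14 members (34.1%) were bound, against 29.4% of all protein-coding genes, and these were 5 of 10 CYCD, 2 of 10 CYCA, 1 of 10 CYCB, 1 of 4 CDKB and 5 of 6 KRP genes. With each region given to a single gene by its midpoint, 14 members (34.1%) were again bound, against 23.0%, now as 6 of 10 CYCD, 2 of 10 CYCA, 1 of 10 CYCB, 0 CDK and 5 of 6 KRP genes. Neighbouring genes share much of this sequence, so that a region is not tied to the member alone: of the 28 WUS-GR regions in member windows, 19 also lay in the window of another protein-coding gene, and 19 were given to the member by their midpoint. For the CYCD genes 9 of 13 regions were given to the member, and for the KRP genes 7 of 9.

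**Figure D2:**
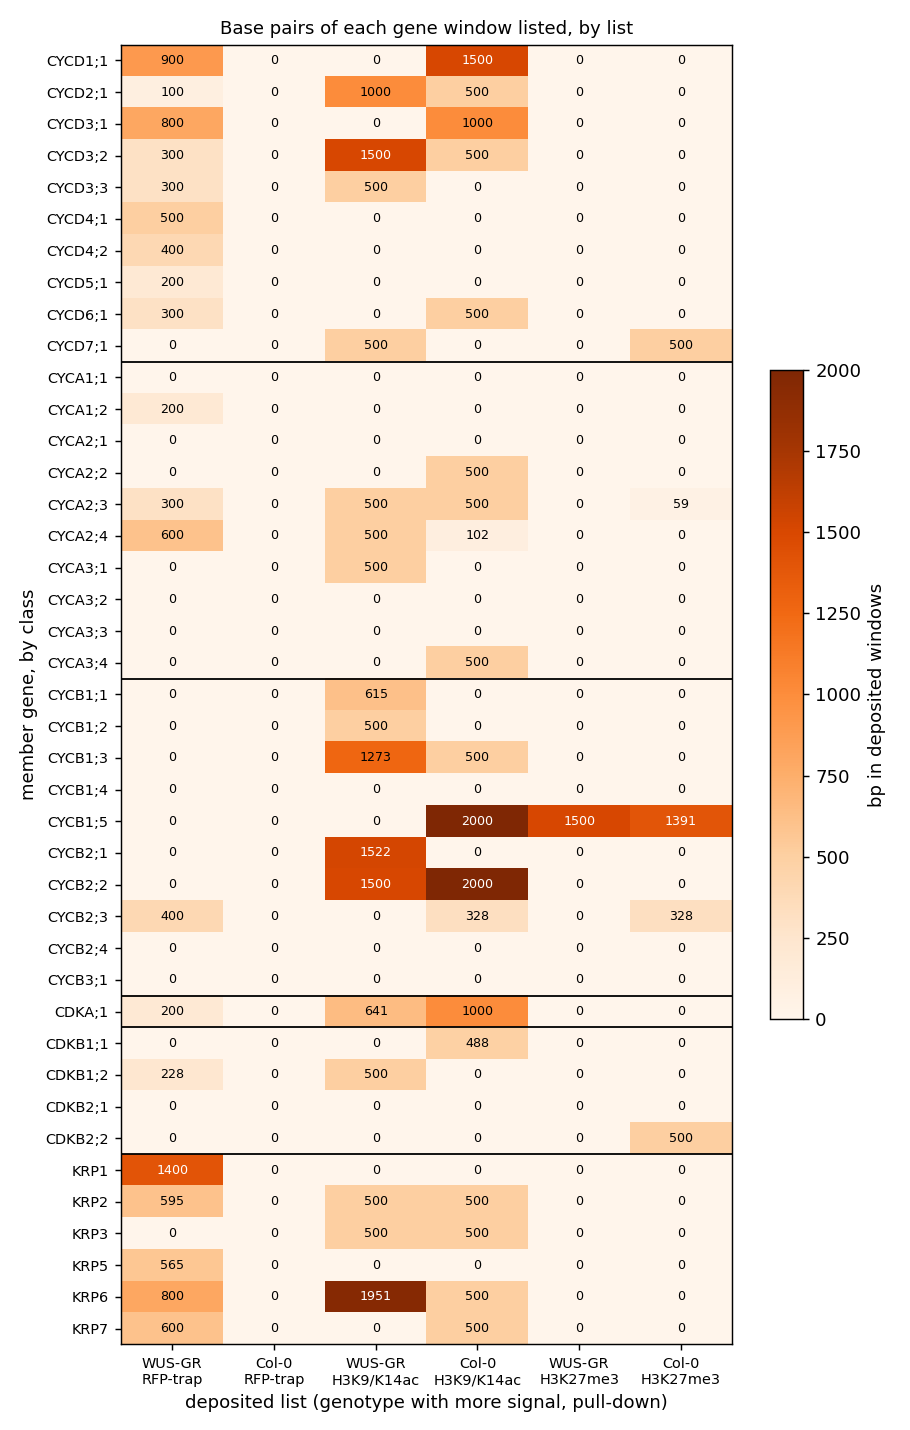
Base pairs of each member's gene window (rows, by class) that lay in windows of each of the 6 lists (columns, before the 73 bp rule), printed in the cell and shown by shade. The Col-0 RFP-trap column is 0 in every row, WUS-GR RFP-trap values run up to 1400 bp at KRP1, and all CYCB rows but 1 are 0 in the WUS-GR RFP-trap column.

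The KRP genes, whose products inhibit cyclin-CDK complexes, had the most bound sequence. WUS-GR RFP-trap windows covered 1400 bp at KRP1, 800 bp at KRP6, 600 bp at KRP7, 595 bp at KRP2 and 565 bp at KRP5, and 0 bp at KRP3. The median over the 5 bound KRP genes was 600 bp, against 400 bp over all bound protein-coding genes. At 3 of them a region crossed the start of the gene, and the midpoints lay 140 bp past the TSS at KRP1, 151 bp past it at KRP6 and 6 bp before it at KRP7.

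KRP1 (AT2G23430, chr2:9976590-9978090, minus strand), also called ICK1, lowers CDK activity and limits cell number when overproduced. Its 500 bp region covered the 5′ UTR and the TSS, and a 900 bp region, the longest at any member, covered the gene end. KRP1 had no window in either acetylation list or either methylation list. KRP6 (AT3G19150, chr3:6616330-6617951, minus strand) and KRP7 (AT1G49620, chr1:18365336-18366744, minus strand) encode inhibitors that are removed by an F-box protein in the male germline. At KRP6 both 400 bp WUS-GR regions, over the TSS and near the gene end, lay entirely within a gained H3K9/K14ac region of 1500 bp, the longest gained acetylation region kept at any member. KRP6 was the only bound member with gained H3K9/K14ac under a WUS-GR region. At KRP7 the 300 bp region over the TSS had no acetylation region under it, and a lost region of 500 bp stood 1100 bp away, nearer to the neighbouring gene PREP2.

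The WUS-GR regions over the TSS of these 3 genes were rich in AACGG, the core of the element bound by the mitotic MYB3R factors. Only this short core was searched, not the full element, and it was in 32.4% of all WUS-GR regions. Whether MYB3R factors bind at these copies was not tested. KRP6 and KRP7 each held 6 copies on either strand in their region, a number reached by 0.208% of all 10087 WUS-GR regions, and KRP1 held 4, reached by 1.01%. The count of copies was made after the sites had been seen. The closest pair of sites, around the 5′ UTR of KRP6 and KRP7, is shown because 27 of 30 bases are the same in both genes, with CCGTT, the reverse complement of AACGG, in capitals. Sequences here and below are from the RefSeq TAIR10.1 genome, written 5′ to 3′ on the strand of the gene. The KRP6 stretch is chr3:6617780-6617809, minus strand, and the KRP7 stretch is chr1:18366686-18366715, minus strand.
KRP6: aataaaatctcaaCCGTTgaaataatcaac
KRP7: aattaaatctcagCCGTTgaattaatcaac

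KRP2 (AT3G50630, chr3:18800306-18801595, plus strand), an inhibitor that acts in auxin-dependent lateral root initiation, had regions of 300 bp at 1955 bp upstream of its TSS and of 600 bp at 2295 bp past it, beyond the gene. Its single gained and lost acetylation windows abutted and were dropped. KRP5 (AT3G24810, chr3:9060836-9062003, plus strand), also called ICK3, had 1 region of 600 bp at 2235 bp upstream and no acetylation window. KRP3 (AT5G48820, chr5:19792270-19794480, minus strand), the KRP gene without binding, had 1 gained and 1 lost acetylation window next to each other, both dropped. KRP4 fell outside the naming rule, since the annotation only spells out its synonym. Its values (AT2G32710), looked up after the others were seen, were 1100 bp of WUS-GR RFP-trap windows in 2 regions, at 39 and 2689 bp past the TSS, and 1 gained acetylation region.

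The CYCD genes, which link growth and hormone signals to S phase, were bound at 9 of 10 loci, and all but 1 of the 13 WUS-GR regions measured 100 to 500 bp. Of these 13 regions, 5 were centred upstream, 4 inside the gene and 4 past its end, and the median midpoint was 1812 bp past the TSS. Bound sequence per gene had a median of 300 bp (100 to 900 bp), below the 400 bp over all bound protein-coding genes. Binding and changed acetylation stood in the same gene window at 5 of the 9, against 6394 of the 10452 bound protein-coding genes. At 0 of 10 CYCD genes a WUS-GR region overlapped a changed acetylation region, and that overlap is rare among all protein-coding genes too (5.26%).

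CYCD1;1 (AT1G70210, chr1:26439556-26443007, plus strand), a cyclin active in the root tip at germination, had the most bound sequence of any cyclin gene, 900 bp in 3 regions. They were centred 755 bp upstream, 5 bp upstream and, in the 3′ UTR, 2745 bp past the TSS. Between the second and the third lay lost H3K9/K14ac regions of 1000 and 500 bp, 300 and 100 bp from the nearest WUS-GR region. No acetylation window of this gene came from the WUS-GR list.

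The D3 cyclins, which answer to cytokinin and keep shoot cells in division, were all bound. CYCD3;1 (AT4G34160, chr4:16357421-16359565, plus strand) had 800 bp in 2 regions, of 200 bp at 80 bp past the TSS in the 5′ UTR and of 600 bp just beyond the gene at 2580 bp. Its lost acetylation regions, of 500 bp each, lay in the coding sequence at 1830 bp, 200 bp from the second WUS-GR region, and 1670 bp upstream, where the region belonged by midpoint to the neighbour AT4G34150. CYCD3;2 (AT5G67260, chr5:26836139-26839597, plus strand) had only 300 bp, a 200 bp region at 1338 bp upstream that fell to the neighbour SKIP2 and a single 100 bp window in an intron at 1812 bp. A gained H3K9/K14ac region of 1000 bp covered its TSS, and a lost one of 500 bp abutted the intron window. A second gained region, of 500 bp, was centred past its end and belonged by midpoint to the neighbour AT5G67265. CYCD3;3 (AT3G50070, chr3:18565134-18566834, minus strand) had 1 region of 300 bp in its promoter, centred 316 bp upstream, and a gained acetylation region of 500 bp in the coding sequence, 1000 bp away. In these lists the D3 genes thus differed in acetylation: lost only at the first, gained and lost at the second, and gained only at the third.

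The other CYCD genes had 1 region each or none. CYCD2;1 had a single window of 100 bp at 3317 bp past its TSS, and its adjoining gained and lost acetylation regions, of 1000 and 500 bp, were dropped. CYCD4;1 had 500 bp at 2970 bp, beyond its end, and CYCD4;2 400 bp at 1447 bp upstream, and by midpoint both regions fell to other genes. CYCD5;1, which has been tied to endoreduplication, had 200 bp in its 3′ UTR. CYCD6;1 (AT4G03270), which acts in the formative division of the root ground tissue, had 300 bp centred past its end, given by midpoint to the neighbour AT4G03260. A lost acetylation region of 500 bp in its coding sequence lay 600 bp away. CYCD7;1, a cyclin of the guard mother cell, was the CYCD gene without binding. Its gained acetylation region at 1666 bp upstream fell by midpoint to the neighbour UNE18. A lost H3K27me3 region of 500 bp lay in an intron.

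**Figure D3:**
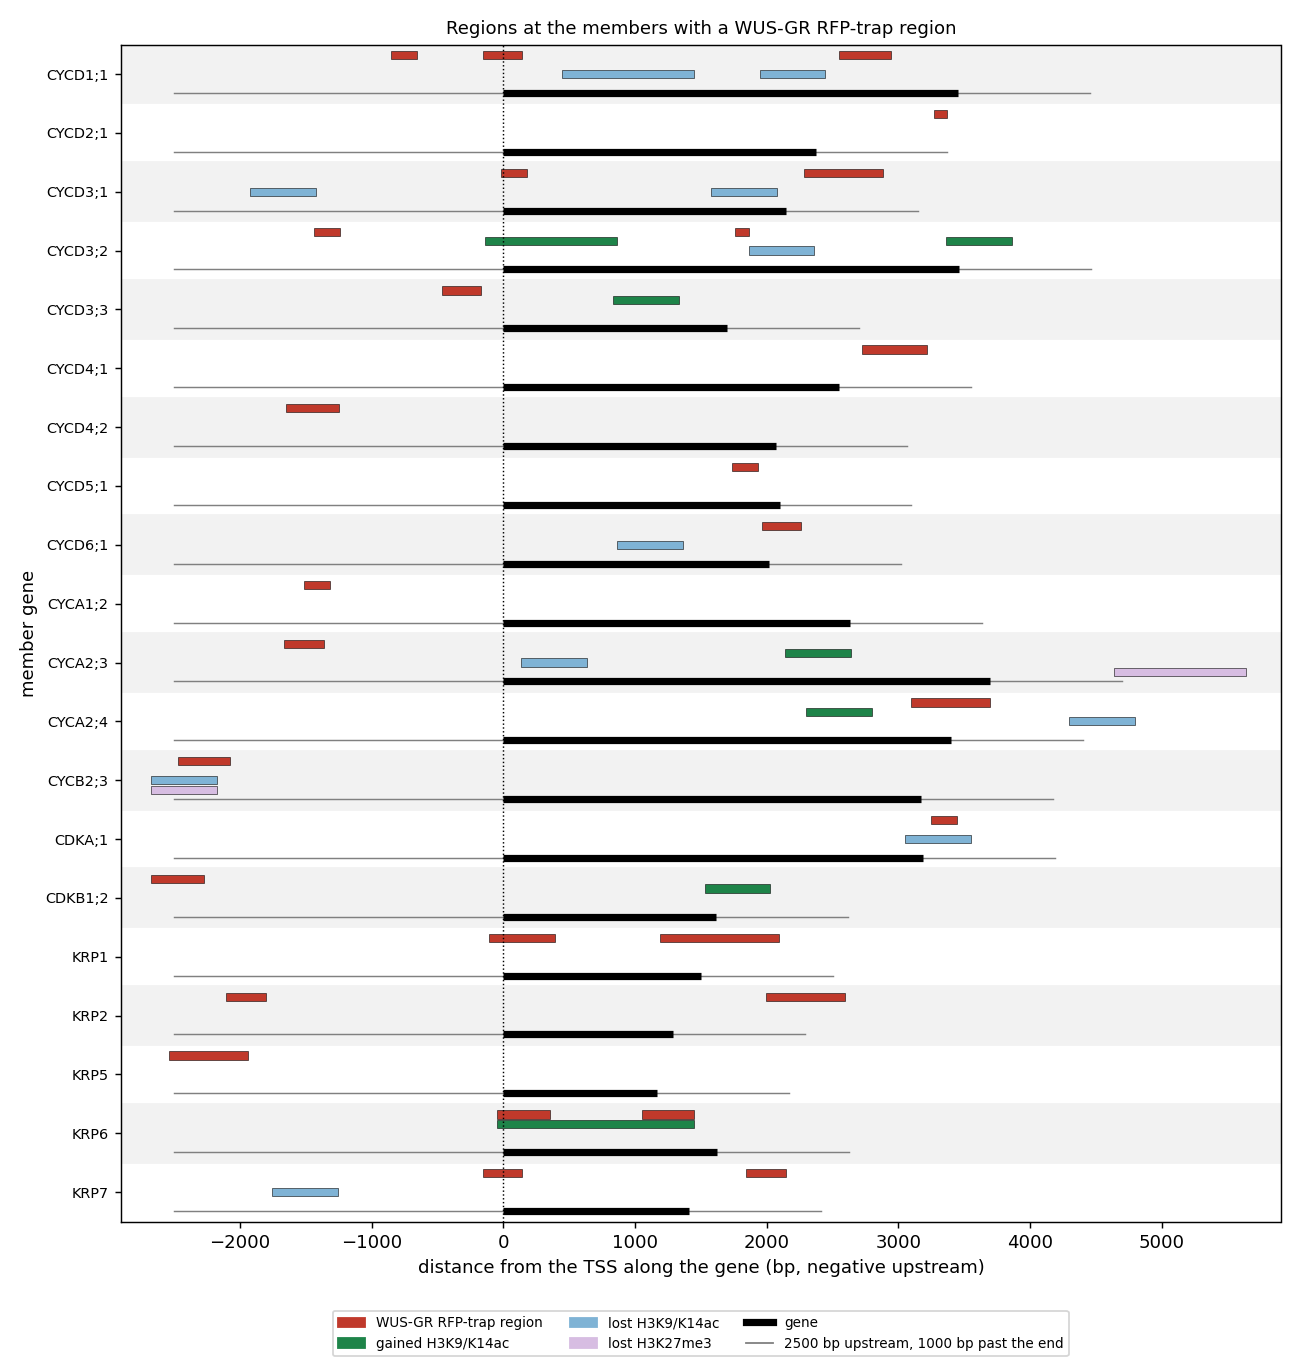
Maps of the 20 bound members, with distance from the TSS along the gene on the horizontal axis (bp). Red bars are WUS-GR RFP-trap regions, green bars gained and blue bars lost H3K9/K14ac regions, lilac bars lost H3K27me3 regions, black lines the genes and grey lines the gene windows. Red bars cross the TSS at 5 genes, and coloured histone bars lie under a red bar at 3.

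Of the CYCA genes, 3 of 10 were bound, each by 1 region. CYCA2;4 (AT1G80370, chr1:30213705-30217102, plus strand) had 600 bp over its 3′ UTR and gene end, with a gained acetylation region 300 bp to one side and a lost one 600 bp to the other, the lost one centred in the next gene. CYCA2;3 (AT1G15570, chr1:5361865-5365559, plus strand), which with CDKB1 kinases holds back endoreduplication, had 300 bp at 1514 bp upstream. An intron near its start carried a lost acetylation region, at 386 bp, and its coding sequence a gained one, at 2386 bp, which were 1500 and 3500 bp from the WUS-GR region, and a lost H3K27me3 region reached 59 bp into its window. CYCA1;2 (AT1G77390), a cyclin of meiosis, had 200 bp at 1415 bp upstream, nearer to another gene, and no histone region. The unbound CYCA genes with a change had it close to the start of the gene. CYCA2;2 and CYCA3;4 had a lost acetylation region, at 100 and 177 bp past the TSS, and CYCA3;1 a gained one at 299 bp. CYCA1;1, CYCA2;1, CYCA3;2 and CYCA3;3 were in no list.

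The CYCB genes, whose products enter mitosis with CDKs, were bound at 1 of 10 loci. CYCB2;3 (AT1G20610, chr1:7134659-7137828, minus strand) had a 400 bp region centred 2272 bp upstream, at the far end of its window. A lost H3K9/K14ac and a lost H3K27me3 region occupied the same 500 bp there, and both shared 300 bp with the WUS-GR region. It was the only member at which a WUS-GR region overlapped changes of both marks.

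CYCB1;1 (AT4G37490, chr4:17621886-17624308, minus strand), widely used to mark cells in G2 and mitosis, had no WUS-GR RFP-trap window. A gained acetylation region of 1000 bp, centred 3308 bp past its TSS, began beyond the gene end and belonged by midpoint to the neighbour AT4G37480. CYCB1;2 likewise had a gained region beyond its end, at 2953 bp, which fell by midpoint to the neighbour SNX1. CYCB1;3 had gained acetylation at 727 and 2477 bp upstream, in regions of 1000 and 500 bp, and a lost region in its coding sequence. The farther gained region fell by midpoint to the neighbour AT3G11530. At CYCB1;5 the lost acetylation region of 2000 bp was the longest at any member, and a gained H3K27me3 region lay 359 bp upstream, the only one kept at a member. At this locus 2 further gained and 2 lost H3K27me3 regions were dropped by the 73 bp rule. CYCB2;1 had a gained region in an intron and CYCB2;2 a lost one of 1000 bp across its TSS, at 95 bp upstream, with further acetylation windows dropped at each. CYCB1;4, CYCB2;4 and CYCB3;1 were in no list.

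CDKA;1 (AT3G48750, chr3:18071454-18074641, plus strand), the kinase used through the whole cycle, had 1 WUS-GR region of 200 bp, 3347 bp past its TSS. It lay beyond the gene end, within a lost acetylation region of 500 bp, and both belonged by midpoint to the neighbour AT3G48760. Of the other acetylation windows, an adjoining gained and lost pair inside the gene and a gained region beyond its end were dropped. CDKB1;2 (AT2G38620), a mitotic kinase that also acts in stomatal divisions, had 228 bp of a WUS-GR region at the upstream limit of its window, 2472 bp before the TSS. It also had a gained acetylation region past its end, 3800 bp away. By midpoint both regions fell to neighbouring genes. CDKB1;1 had a lost acetylation region beyond its end and CDKB2;2 a lost H3K27me3 region at 1004 bp upstream, each nearer to another gene. CDKB2;1 was in no list.

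Taking all classes, a changed H3K9/K14ac region in either direction was found at 23 members (56.1%), against 52.8% of all protein-coding genes, and regions of both directions at 4 (9.76%), against 9.16%. Binding and changed acetylation anywhere in the same gene window were found at 12 members (29.3%), against 23.3%. Among bound genes alone, changed acetylation was found at 12 of 20 members and at 6394 of 10452 protein-coding genes. A WUS-GR region overlapped a changed acetylation region at 3 members (7.32%), against 5.26%. Regions of the 2 kinds lay less than 1000 bp apart at 8 members (19.5%), against 15.3% of all protein-coding genes. Among the 31 changed acetylation regions at members, 17 were lost, or 54.8%, and the corresponding share at all protein-coding genes was 47.9%. The 95% Wilson interval of the member share was 37.8 to 70.8%. It covers counting error only and takes the regions as independent, though some share a gene.

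The position of each region along the gene was read from its midpoint. Of the 28 WUS-GR regions, 12 (42.9%) were centred upstream of the TSS, 8 inside the gene and 8 past its end, whereas over all protein-coding genes 59.1% were centred upstream. None of the 8 inside a gene was centred in coding sequence: 3 lay in a 5′ UTR, 3 in a 3′ UTR, 1 in an intron and 1 in another exon part. The median midpoint was 145.5 bp past the TSS at members, against 146 bp before it at all protein-coding genes. Gained acetylation was centred at a median of 1390 bp past the TSS at members, against 525 bp, and lost acetylation at 1111 bp, against 562 bp. The median length of a WUS-GR region was 300 bp both at members and over the whole list. A bound member had a median of 1 region (1 to 3), and 400 bp in WUS-GR RFP-trap windows (100 to 1400 bp), which equals the 400 bp over all bound protein-coding genes.

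**Figure D4:**
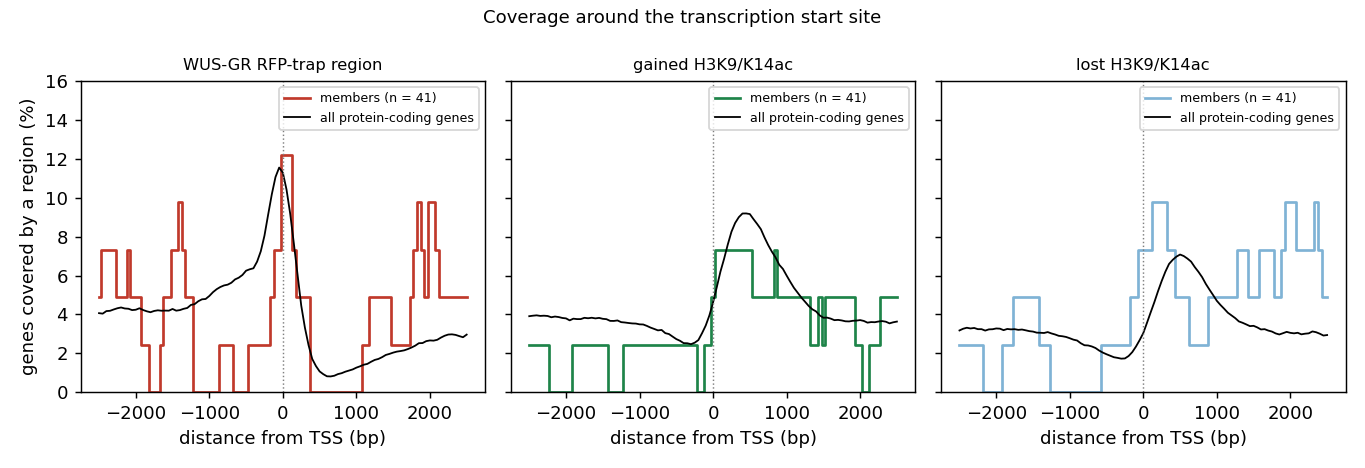
Share of genes covered by a region (vertical axis, percent) at each distance from the TSS (horizontal axis, bp), for the 41 members (coloured steps) and all protein-coding genes (black line). WUS-GR regions covered the TSS of 5 members (12.2%), close to the highest share of 11.6% over all genes, at 50 bp upstream. Gained acetylation peaked at 7.32% (3 members) and lost acetylation at 9.76% (4 members), so each step of the coloured lines is 1 gene.

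Sequence words known for factors of the cell cycle or for WUS were searched on both strands of the WUS-GR regions. CACGTG, the G-box, was in 8 of the 28 member regions (28.6%), against 22.6% of all WUS-GR regions, and these belonged to 7 genes, among them KRP1, KRP5, KRP6 and KRP7. In the 1000 bp upstream of the TSS it was no more frequent at members (14.6%) than at all protein-coding genes (14.8%). AACGG was in 16 regions (57.1%), against 32.4%. Per length, member regions held 2.94 copies per kb, and 1.93 without KRP6 and KRP7, against 1.12 in all WUS-GR regions. In the 1000 bp upstream of the TSS it was found at 63.4% of members and 55.9% of all protein-coding genes. The words TTAATGG, TGAATGAA and TTAATCC, homeodomain-type words tried for WUS, were in 3, 1 and 1 member regions (10.7%, 3.57% and 3.57%), against 9.33%, 5.50% and 5.03%. Member regions were somewhat shorter, with a mean of 364 bp against 420.4 bp over the whole list.

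The G-box sites nearest to a TSS or in the best covered genes are shown with CACGTG in capitals, because the word was in WUS-GR regions of 7 bound members. KRP1 is chr2:9978170-9978199 (minus strand, 94 bp upstream of the TSS), AT3G50070, the third D3 gene, is chr3:18567107-18567136 (minus strand, 287 bp upstream), and the AT1G70210 sites are chr1:26438704-26438733 (plus strand, 837 bp upstream) and chr1:26442293-26442322 (plus strand, in the 3′ UTR, 2752 bp past the TSS). The KRP6 site, chr3:6616883-6616912 (minus strand), lies in the gene 1054 bp past the TSS, and the KRP5 site, chr3:9058868-9058897 (plus strand), 1953 bp upstream.
KRP1: gtttataaccgaCACGTGtcaataaaacaa
KRP5: tgagagtcatcgCACGTGtgccttccttct
KRP6: catcatctctctCACGTGtgttcttgttgt
AT3G50070: acattcaataagCACGTGagtataagcttt
AT1G70210, upstream: ttttgtaaggcaCACGTGaaagaaagtaac
AT1G70210, 3′ UTR: gagtgtaacacaCACGTGttagagaaaaga

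E2F words, sites of the factors that retinoblastoma-related protein holds in check, were rare in WUS-GR regions. TTTCCCGC stood in 1 member region (3.57%), against 0.654% of all WUS-GR regions, and in 0% of member promoters of 1000 bp, against 1.97%. It is shown because it lies 65 bp past the TSS of AT4G34160, the first D3 gene, within its 5′ UTR region (chr4:16357471-16357500, plus strand), where the capitals mark its reverse complement. TTTGGCGC stood in 1 region (3.57%), against 0.446%, 2103 bp upstream of KRP5 (chr3:9058718-9058747, plus strand). In promoters of 1000 bp TTTGGCGC was at 1 member (2.44%), against 1.03%. GGGCCCAC, a word of TCP factors, was in 1 region (3.57%), against 0.783%, past the end of AT5G65420, a D4 gene (chr5:26141200-26141229, minus strand). Each of these shares of member regions rests on 1 region.
AT4G34160, E2F word: aagtgggtaaaGCGGGAAAcagcaaaagaa
KRP5, E2F word: tttttttttttTTTGGCGCcctgaaaaaaa
AT5G65420, TCP word: ggcttagaattGGGCCCACgaacagaagtc

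Other genes of the cell-cycle machinery were read from a list of 63 names, of which 55 matched, and 6 further CYCP genes, 61 genes in all. Of these, 20 (32.8%) were bound, below the 38.1% of all protein-coding genes, and 0 had a Col-0 RFP-trap window. Gained acetylation was found at 17 (27.9%), against 33.1% of all protein-coding genes, and lost acetylation at 8 (13.1%), against 28.8%. Gained H3K27me3 was found at 2 (3.28%), against 3.88%, and lost H3K27me3 at 7 (11.5%), against 14.2%. The SIM and SMR inhibitors, a plant family that blocks CDKs like the KRP proteins, were bound at 4 of the 5 loci that matched, while the names SMR2, SMR3, SMR6 and SMR8 had no single match in the annotation and were not analysed here. WUS-GR RFP-trap windows covered 400 bp at SIM, which drives trichome cells into endoreduplication, 100 bp at SMR1, 500 bp at SMR4 and 300 bp at SMR5, and SMR7 had 0 bp. Around the retinoblastoma pathway 3 of 9 genes were bound, with 400 bp at RBR1, the retinoblastoma-related gene, 755 bp at DPA and only 4 bp at the edge of the E2FC window. Of the MYB3R genes 2 of 4 were bound, MYB3R1 with 500 bp and MYB3R5 with 200 bp. Replication licensing genes were bound at 3 of 16 loci (CDC6, MCM4 and ORC2), and the activators of the anaphase-promoting complex, which ends mitosis by having cyclins destroyed, at 0 of 5. Compared by class, the bound inhibitors were 5 of 6 KRP and 4 of the 5 matched SIM and SMR genes, while the 3 bound licensing genes had 830 bp (CDC6), 400 bp (MCM4) and 100 bp (ORC2) of WUS-GR RFP-trap windows.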

How the data were processed

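ChIP-seq lists of 6 groups, WUS-GR and Col-0 by RFP-trap, H3K9/K14ac and H3K27me3, were used, grouped by sample title. Reads had been mapped to TAIR10 (BWA) by the authors, who called differences between WUS-GR and Col-0 with hiddenDomains in windows of 100 bp (RFP-trap) or 500 bp (histone marks). Only the chromosome, start and end of each window were read from the deposited lists. Depth is therefore unknown, the precision cannot be stated, and weak windows were not told from strong ones. The study also kept only peaks above a limit of posterior probability, and no such filter was applied here.

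Windows that overlapped or touched were merged in Python 3.11.15. The 73 bp rule and the distances of 2500 and 1000 bp follow the study's methods. Gene models and sequence came from the RefSeq TAIR10.1 assembly, whose chromosomes span every listed window. A region counted for a gene from 1 bp of overlap, or was given to 1 gene by its midpoint (containing gene, nearest TSS within 2500 bp, gene end within 1000 bp). The steps were checked on planted regions, and figures were drawn with matplotlib 3.10.9. Described in full were, in each class, the 3 members with most bp in WUS-GR RFP-trap windows, every bound member with a changed histone region, every member with a Col-0 RFP-trap window, CDKA;1, CYCB1;1 and the CYCD3 genes. The members and lists were chosen with earlier results of these data known. Alternatives changed the gene window, the assignment, the joining of windows, the minimum length, the naming rule, the 73 bp rule and the part of a region searched for words. KRP4 was added to the members after its values had been seen.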

Additional observations from a re-analysis of the deposited data

How the results depend on the processing

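Across 17 results and 65 alternative settings, 48 values stayed within the limits used (counts within 1.5 times the reported one) and 17 moved. Taking the gene body only, 9 members were bound (20 as reported), 0 had gained H3K27me3 (1) and 1 had lost H3K27me3 (4). Taking only the 2500 bp upstream, gained H3K9/K14ac was found at 4 members (12), lost H3K9/K14ac at 6 (15) and lost H3K27me3 at 2 (4). Requiring at least 2 adjacent windows left gained H3K9/K14ac at 4 members, lost H3K9/K14ac at 3, gained H3K27me3 at 0 and lost H3K27me3 at 1. Assignment by midpoint left lost H3K27me3 at 2. An acetylation change less than 1000 bp from a WUS-GR region was found at 8 members, against 3 with an overlap. In the central 200 bp of the regions, which is less sequence, CACGTG was at 3 members (7) and TTAATGG at 1 (2). TGAATGAA, TTAATCC and TTTGGCGC were at 0 (1 each). AACGG was at 12 members (13), and TTTCCCGC and GGGCCCAC stayed at 1. Without the 73 bp rule, gained H3K9/K14ac was at 17 members and lost at 19. For the histone counts under these altered settings the share of all protein-coding genes is not given here, so they have no background. With KRP4 added, chosen after seeing the data, 21 were bound. Why values moved was not tested. No paired analysis was possible because a group is a single list.

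Positions are the only values used, 1 pool stands behind each list, and differences carry no test. Most histone calls at members rest on a single 500 bp window. Binding was read in whole seedlings that make WUS throughout, so cells that normally contain WUS cannot be told apart from the rest, and transcript levels were not analysed here.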
